A study of Mus musculus with 8 samples.

Results

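Gabra2, Gabra3, Gabra4, Gabra5 and Gabrd encode the alpha2, alpha3, alpha4, alpha5 and delta subunits of the GABA-A receptor. These 5 genes were taken by symbol from the 14353 genes of a comparison of ribosome-bound mRNA with bulk mRNA in the mouse ventral pallidum (VP), and all 5 passed the filter on low values. The GABA-A receptor is a chloride channel built of 5 subunits and opened by GABA, usually from alpha and beta subunits together with a gamma or a delta subunit. The alpha subunit and the choice of gamma or delta set where a receptor sits and which drugs act on it. Receptors with alpha2 or alpha3 and a gamma subunit are mostly synaptic, whereas receptors with alpha4 and delta, and many with alpha5, sit outside the synapse and carry tonic inhibition. The VP receives dense GABAergic axons from the nucleus accumbens.

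The mice were homozygous for VGluT2-Cre and heterozygous for the RiboTag allele of Rpl22, which puts a hemagglutinin tag on ribosomes of cells that express Cre. TRAP is the RNA on ribosomes pulled down by that tag, labelled glutamatergic neurons, and INPUT is the RNA of the same lysate, labelled as holding all neurons and glia. The 4 pools, named VP1.6, VP2.2, VP2.6, VP2.11, each gave 1 library a fraction (n = 4 libraries per fraction). Together they held 38 untreated mice, 15 male and 23 female, at 7 to 11 mice a pool, aged 9 to 12 weeks in VP1.6 and 10 to 16 weeks in the others. Every mouse carried both alleles, so no library lacks Cre or the tag. The methods speak of an unbound fraction at one point where the labels say Input. They allow that neighbouring striatum may have entered the punches. They add that such areas lack VGluT2 and so would not contaminate the pull-down. RNA of other cells also stays in a pull-down, so TRAP is enriched in the tagged cells rather than made of them alone.

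The deposited values are log2 CPM, read counts scaled to a fixed library total. In VP2.2 and VP2.6 the steps of low values gave library sizes of about 14.06 and 13.92 M reads for TRAP and 42.51 and 27.65 M for INPUT. At these sizes the CPM of the 5 genes correspond to roughly 193 to 1302 reads in TRAP and 486 to 3819 in INPUT, and counting error to a standard error of roughly 0.0463 to 0.123 in the log2 difference of a pool. These are estimates, since each gene's level carries a shift within its pool that the true reads do not. Depth is unknown in VP1.6 and VP2.11. The glutamatergic markers Slc17a6 and Slc17a7 were higher in TRAP, with a summed level of the 3-gene list of 189 to 216 CPM against 32.2 to 70.8 CPM. Slc17a8, the other gene of that list, did not pass (log2 fold change -0.03, limma adjusted p = 0.95). Lower in TRAP were 4 of 5 astrocyte, 4 of 5 oligodendrocyte and 5 of 5 microglia markers (4 of 5 for microglia with the pool as a block), and no list was at 0. Of all 14249 genes tested, limma called 3300 higher and 3530 lower without the block, and 2199 and 2393 with it. The remaining oligodendrocyte marker, Mag, was higher in TRAP at 105 against 69.7 CPM (limma adjusted p = 0.035, or 0.072 with the block).

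The residue that decides whether an alpha subunit binds classical benzodiazepines such as diazepam is histidine in alpha2, alpha3 and alpha5, and arginine in alpha4. It is shown here because it divides the 4 alpha genes by a property that did not enter their choice. The lines below are the 30 bases of reference transcript around it (GENCODE M21, GRCm38), 5′ to 3′, with its codon in capitals. All 4 genes lie on the minus strand.
Gabra2: gataccttctttCACaatgggaaaaagtca
Gabra3: gataccttcttcCACaatggtaaaaaatca
Gabra4: gatactttcttcAGGaatggaaagaaatct
Gabra5: gacacgttcttcCACaacggcaagaagtcc
The codon is at chr5:71014505-71014507 in Gabra2 (exon 5 of 10), chrX:72501168-72501170 in Gabra3 (exon 5 of 10), chr5:71641152-71641154 in Gabra4 (exon 4 of 9) and chr7:57488891-57488893 in Gabra5 (exon 5 of 10). The values count reads over whole genes and do not show this stretch itself.

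The alpha2 and alpha3 genes were the members with a higher level in TRAP. Gabra2 (ENSMUSG00000000560, chr5:70957597-71095849) encodes a synaptic subunit that is also known from the axon initial segment. Its level in TRAP was 40.2 CPM in VP1.6, 51.0 in VP2.2, 32.7 in VP2.6 and 30.5 in VP2.11. In INPUT it was 22.3, 13.4, 28.2 and 30.1 CPM in the same order. Every TRAP library was above every INPUT library, but the lowest TRAP value and the highest INPUT value, both from VP2.11, nearly met. The mean was 38.6 ± 9.28 CPM in TRAP and 23.5 ± 7.51 CPM in INPUT (SD, n = 4), a 1.69-fold difference of the geometric means. The log2 fold change of 0.75 (SE 0.26) had an adjusted p of 0.036 in limma with the fraction alone. With the pool as a block, the SE was 0.30, the 95% interval 0.12 to 1.39 and limma's adjusted p 0.065. That SE does not rest on Gabra2 alone, since limma draws each gene's variance toward a trend over all genes. Gabra2's own pool differences had an SD of 0.86.

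Gabra3 (ENSMUSG00000031343, chrX:72432681-72656848) encodes the alpha3 subunit, found at synapses of many subcortical nuclei. TRAP held 59.7 CPM in VP1.6, 73.1 in VP2.2, 48.3 in VP2.6 and 54.9 in VP2.11. INPUT held 36.8, 22.2, 45.5 and 43.7 CPM. Here too the groups did not overlap, and TRAP was higher in 4 of 4 pools. The means were 59.0 ± 10.5 and 37.0 ± 10.6 CPM (SD, n = 4), a 1.63-fold difference of the geometric means. The log2 fold change was 0.71, with SE 0.23 and adjusted p = 0.027 in limma with the fraction alone, and SE 0.27, interval 0.14 to 1.28 and adjusted p = 0.056 with the block. For each of the 2 genes an exact two-sided permutation test over the libraries gave p = 0.029, the smallest that 4 against 4 allow. That test does not use the pairing by pool, and an exact paired test over 4 pools cannot go below 0.125.

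Both differences varied widely between pools. For Gabra2 the log2 difference within a pool was 0.85 in VP1.6, 1.93 in VP2.2, 0.21 in VP2.6 and 0.02 in VP2.11. For Gabra3 it was 0.70, 1.72, 0.09 and 0.33. VP2.2 stood highest for both genes, at 3.82-fold for Gabra2 and 3.29-fold for Gabra3. Without VP2.2, the log2 fold change was 0.36 for Gabra2 (limma adjusted p = 0.12) and 0.37 for Gabra3 (adjusted p = 0.056). Without VP1.6 neither gene passed (limma adjusted p = 0.14 and 0.10), but the log2 fold changes, 0.72 and 0.71, were close to those over 4 pools. Without VP2.6 Gabra2 missed the threshold (adjusted p = 0.054) at a larger log2 fold change of 0.93. TRAP minus INPUT rose with exon length across genes in all 4 pools, most in VP2.2 (Spearman's rho 0.57, against 0.21 to 0.32 in the others), and Gabra2 has the longest exon sequence of the members, 7640 bases. With that trend removed, limma gave Gabra2 0.43 (adjusted p = 0.17) and Gabra3 0.69 (adjusted p = 0.033, or 0.044 with the block). The part of transcript length in the Gabra2 difference was not tested further. VP2.2 also stood apart in marker sums: the log2 ratio of TRAP to INPUT for 4 GABAergic markers together was 1.09 there and -0.65 to -0.21 in the other pools. That sum follows Gad1 (1.66 in VP2.2) and Gad2 (1.29), while Slc32a1 (-0.60) and Pvalb (-1.84) were lower in TRAP of VP2.2 as well. For 3 cholinergic markers together it was 1.80 there and 0.062 to 0.41 in the others, though by gene 1 was called higher (Chat, without the block only) and 1 lower (Slc18a3). Within both lists the difference in VP2.2 was larger the more exon bases a marker has. Gad1, Gad2, Slc32a1 and Pvalb have 7639, 5876, 2797 and 1041 exon bases. Slc5a7 (2.48 in VP2.2), Chat (1.62) and Slc18a3 (-0.002) have 5644, 4703 and 2413. The part of exon length in these sums was not tested, nor was the part of such cells in the Gabra2 and Gabra3 differences.

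**Figure D1:**
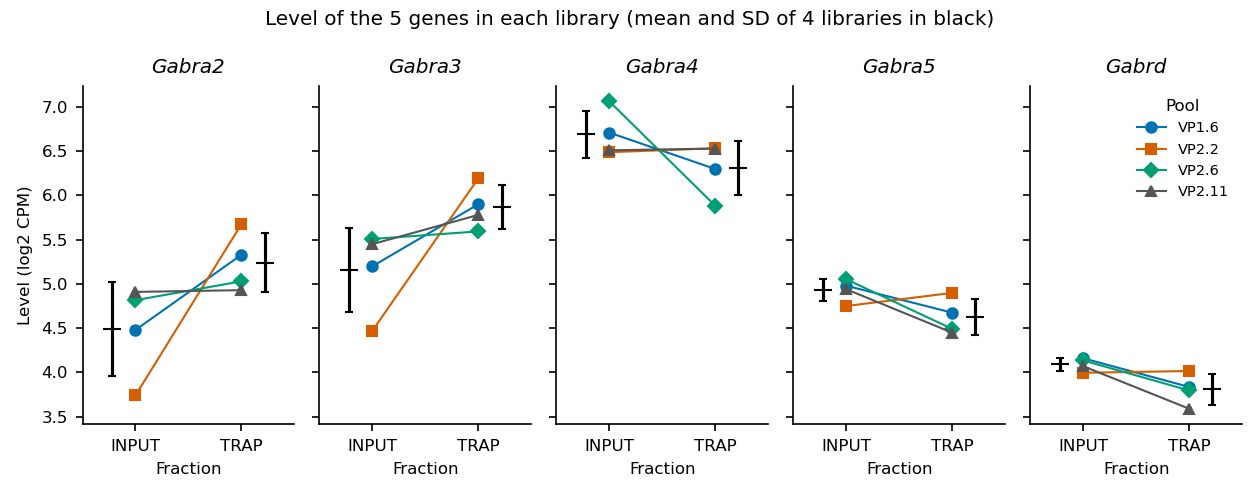
Level of each gene (vertical axis, log2 CPM) in the INPUT and TRAP library of each pool, joined by a line per pool, with the mean and SD of each fraction (n = 4) as black marks. The Gabra2 and Gabra3 lines rise from INPUT to TRAP in 4 of 4 pools and most steeply in VP2.2, and the Gabra4 line of VP2.6 falls from 7.06 to 5.88.

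The alpha4 gene did not pass the test, and its mean was lower in TRAP. Gabra4 (ENSMUSG00000029211, chr5:71569749-71658308) encodes the partner of delta in tonic receptors and is abundant in striatal medium spiny neurons. TRAP held 78.8 CPM in VP1.6, 92.6 in VP2.2, 59.0 in VP2.6 and 92.4 in VP2.11. INPUT held 104.7, 89.8, 133.7 and 91.1 CPM. The fractions overlapped: TRAP and INPUT were nearly level in VP2.2 and VP2.11, and TRAP was clearly below INPUT in VP2.6. Within pools the log2 difference was -0.41, 0.04, -1.18 and 0.02, with a mean of -0.38 (SE 0.18, or 0.24 with the block). Limma's adjusted p was 0.11 with the fraction alone and 0.24 with the block (interval -0.90 to 0.13). The call depended on how pools and length were weighed. Weights for each library's quality brought the log2 fold change to -0.71 (limma adjusted p = 0.0045, or 0.019 at -0.63 with the block). Removal of the trend with exon length brought it to -0.61 (limma adjusted p = 0.022, or 0.040 with the block). Without VP2.6 it was -0.12.

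Of 6 striatal medium spiny neuron markers, 4 (Drd1, Drd2, Adora2a and Ppp1r1b) were lower in TRAP in both fits. Of all 14249 genes tested, 3530 were lower with the fraction alone and 2393 with the block. Their summed level with Rgs9 and Pde10a was 347 to 553 CPM in TRAP and 669 to 897 CPM in INPUT. The log2 ratio of these sums was -1.37 in VP1.6, -0.40 in VP2.2, -1.01 in VP2.6 and -0.63 in VP2.11. All 6 were thus still present in TRAP, and VP1.6 and VP2.6 had the lowest ratio for the markers as for Gabra4. The part of these neurons in the Gabra4 values was not tested. In bulk RNA, fewer cells of a type and less RNA per cell cannot be told apart.

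The alpha5 and delta genes had slightly lower means in TRAP and did not pass the test. Gabra5 (ENSMUSG00000055078, chr7:57407672-57510059), known for tonic inhibition in the hippocampus, was at 25.5, 29.8, 22.5 and 21.9 CPM in TRAP, with the pools in the order above. In INPUT it was at 31.6, 26.9, 33.2 and 30.7 CPM. TRAP was below INPUT in 3 pools, and above it in VP2.2. The log2 fold change was -0.30 (SE 0.15), with limma adjusted p = 0.11, and 0.35 with the block (interval -0.81 to 0.21). Without VP2.2 it was -0.45 and passed in limma with the fraction alone (adjusted p = 0.021), but not with the block (adjusted p = 0.14).

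Gabrd (ENSMUSG00000029054, chr4:155384980-155398112) encodes the delta subunit, which gives receptors a high affinity for GABA and sensitivity to neurosteroids. TRAP held 14.3, 16.2, 13.9 and 12.0 CPM in the same order of pools, and INPUT held 17.9, 16.0, 17.6 and 16.8 CPM. It was the lowest member in CPM in both fractions except for the INPUT library of VP2.2, where Gabra2 was lower. Its pattern over pools was that of Gabra5, with TRAP above INPUT in VP2.2 alone (log2 difference 0.02, against -0.32 to -0.48). The log2 fold change was -0.28 (SE 0.15), with limma adjusted p = 0.14, and 0.43 with the block (interval -0.83 to 0.27). Exact two-sided permutation tests gave p = 0.057 for Gabra5, 0.057 for Gabrd and 0.17 for Gabra4. With library quality weights and no block, limma called Gabra5 (-0.39, adjusted p = 0.0094) and Gabrd (-0.29, adjusted p = 0.033) lower.

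Among the 5 genes, 2 were thus called higher and 0 lower with the fraction alone, and 0 with the block. Without VP2.2 the counts with the fraction alone were 0 higher and 1 lower, Gabra5. The methods of the study weight the libraries by quality, which the fit here does not. With such weights limma called 2 members higher and 3 lower with the fraction alone, and Gabra4 alone with the block, where 60.7% and 42.2% of all genes tested were called. The members' median log2 fold change was -0.28, against -0.05 over all genes tested. Of the 14249 genes tested, 47.9% were called with the fraction alone, 32.2% with the block, and in 47.7% the TRAP and INPUT libraries did not overlap, so calls of 2 in 5 are no more than the table as a whole gives. Before adjustment, limma's p with the block was 0.023 for Gabra2 and 0.019 for Gabra3. By log2 fold change Gabra2 stood at the 83.3 percentile of all genes and Gabra3 at 81.8, while Gabra4, Gabra5 and Gabrd stood at 35.6, 38.8 and 39.5. By level, the members ranged from the 48.2 percentile (Gabrd) to the 82.8 percentile (Gabra4) in TRAP.

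The make-up of the alpha genes was also taken within each library, where scaling between libraries drops out but shifts particular to a gene and pool do not. In VP2.2 and VP2.6 such shifts, common to TRAP and INPUT of the pool, had an SD of 0.433 and 0.411 log2 over low genes. The farthest shifts were left out of this SD. In these pools, differences within a pool are therefore firmer than the order of genes in a library. The shifts are unknown in VP1.6 and VP2.11. Levels of different genes were divided by exon length for this (CPM per kb), and each gene was given as a share of the 4 alpha genes' sum. The shares are descriptions, with no test, and cover these 4 genes only. Gabra3 made up 36.2, 36.8, 36.4 and 34.5% in TRAP, with the pools in the order VP1.6, VP2.2, VP2.6, VP2.11, and 23.4, 18.1, 24.0 and 27.6% in INPUT. Gabra2 made up 12.5, 13.2, 12.6 and 9.8% in TRAP and 7.3, 5.6, 7.6 and 9.7% in INPUT. For Gabra3 the TRAP libraries were close to each other (SD 1.0 percentage points) and the INPUT libraries farther apart (SD 3.9), and for Gabra2 the spread was alike (SD 1.5 and 1.7). Gabra4 took 30.8, 30.1, 28.7 and 37.5% in TRAP and 42.9, 47.3, 45.4 and 37.1% in INPUT. Gabra5 took 20.4, 19.8, 22.4 and 18.1% in TRAP and 26.5, 29.0, 23.0 and 25.6% in INPUT. Gabra4 was the largest share in every INPUT library, and Gabra3 the largest in TRAP of all pools but VP2.11, with this division by all exon bases.

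Gabra2 and Gabra3 together held 48.0 ± 2.5% in TRAP and 30.8 ± 5.6% in INPUT (SD, n = 4). The gain within a pool was 18.1 percentage points in VP1.6, 26.3 in VP2.2, 17.4 in VP2.6 and 7.1 in VP2.11. The genes with histidine at the benzodiazepine site, shown above, held 68.2 ± 3.9% in TRAP and 56.8 ± 4.4% in INPUT, and the rest was the arginine gene Gabra4. The histidine share was higher in TRAP in 3 of 4 pools and 0.4 percentage points lower in VP2.11. These sums rest on exon length. Divided by the longest transcript, Gabra3 held 31.2% and Gabra4 38.0% in TRAP, which puts Gabra4 first in both fractions. The direction of each gene's mean from INPUT to TRAP was the same with either length and with none.

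**Figure D2:**
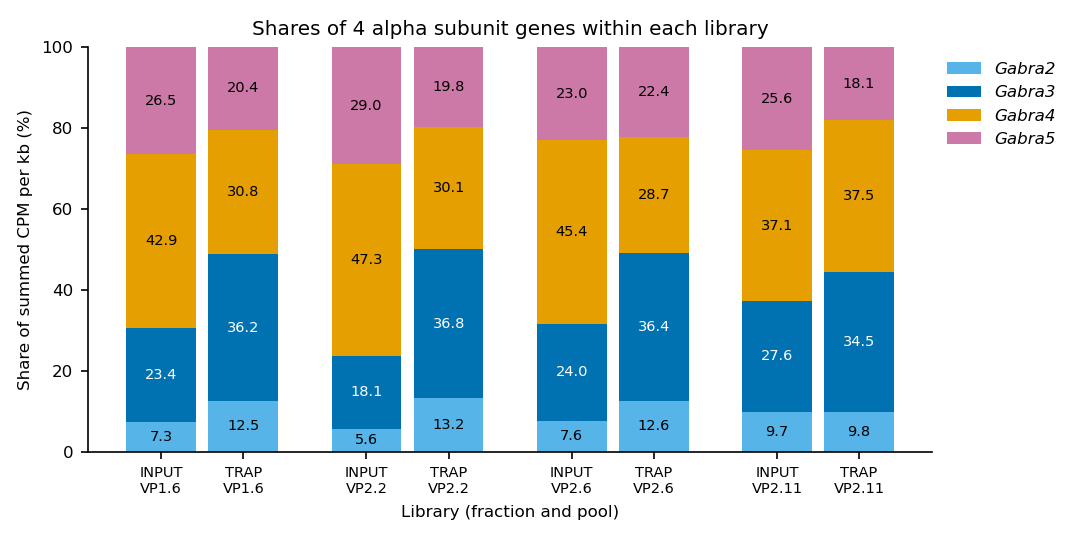
Share of Gabra2, Gabra3, Gabra4 and Gabra5 in their summed CPM per kb of exon (vertical axis, percent) in each of the 8 libraries, side by side for INPUT and TRAP of a pool. The blue parts, Gabra2 and Gabra3, are taller in TRAP in each pool, least so in VP2.11, where the Gabra4 share is 37.1% in INPUT and 37.5% in TRAP.

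In order of level per length, TRAP held Gabra3 (15.04 ± 2.67 CPM per kb), Gabra4 (13.3 ± 2.6), Gabra5 (8.38 ± 1.22), Gabra2 (5.05 ± 1.21) and Gabrd (4.90 ± 0.590; SD, n = 4). Gabra3 and Gabra4 overlapped, with Gabra3 ahead in 3 of 4 libraries, and Gabra2 was ahead of Gabrd in 2 of 4. Gabra4 was above Gabra5, and Gabra5 above Gabra2, in 4 of 4 TRAP libraries. INPUT held Gabra4 (17.2 ± 3.35), Gabra5 (10.3 ± 0.894), Gabra3 (9.44 ± 2.70), Gabrd (5.93 ± 0.299) and Gabra2 (3.07 ± 0.983). Gabra5 and Gabra3 changed places between INPUT libraries, 2 of 4 each way, and the other neighbours kept their order in 4 of 4. Gabra2 was last in INPUT. The gap between Gabra3 and Gabra4 in TRAP is smaller than the SD of the gene shifts. A gap between any 2 genes carries the shifts of both, so orders kept in 4 of 4 libraries are limited by them too. With the longest transcript as the length, Gabra4 was ahead of Gabra3 in 4 of 4 TRAP libraries.

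Whether any of the 5 genes differed from another in its change was tested on the log2 ratio of the pair within each library, for 10 pairs. The ratio of Gabra3 to Gabra4 was higher in TRAP by 1.11 in VP1.6, 1.68 in VP2.2, 1.27 in VP2.6 and 0.31 in VP2.11, a mean of 1.09 (SD 0.57). The ratio of Gabra3 to Gabra5 was higher by 1.01, 1.57, 0.65 and 0.82, a mean of 1.01 (SD 0.40). Gabra2 against Gabra5 (1.06, SD 0.55), Gabra2 against Gabrd (1.03, SD 0.66) and Gabra3 against Gabrd (0.99, SD 0.53) were likewise higher in 4 of 4 pools. For these 5 ratios the exact two-sided permutation test gave p = 0.029, the smallest it allows, and 0.057 after Benjamini-Hochberg adjustment over the 10 pairs. That test does not use the pairing by pool. An exact paired test over the 4 pools gave p = 0.125 for each, the smallest it allows. None of the 10 passed at 0.05. Gabra2 against Gabra4 was higher by 1.26, 1.89 and 1.39 in all pools but VP2.11, where it was level (mean 1.14, SD 0.80, exact p = 0.057, adjusted p = 0.095). The members differ in length: Gabra2 has 7640 exon bases, Gabra5 2974 and Gabrd 2875. With the exon length trend removed, limma's log2 fold change was 0.43 for Gabra2 and 0.69 for Gabra3. It was -0.61 for Gabra4, -0.19 for Gabra5 and -0.16 for Gabrd. The pair ratios were not tested with that trend removed.

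Without removal of the exon length trend, the ratios within the synaptic pair and within the other genes moved little on average. Gabra2 against Gabra3 changed by 0.045 (SD 0.24 over pools) and Gabra5 against Gabrd by -0.02 (SD 0.15), with exact permutation p adjusted to 0.71 for both. The latter ran from -0.22 to 0.13 over pools. Gabra4 against its usual partner Gabrd changed by -0.10 (SD 0.56) and against Gabra5 by -0.08 (SD 0.46), a wide spread between pools. A p that misses the threshold does not show that these genes moved alike.

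**Figure D3:**
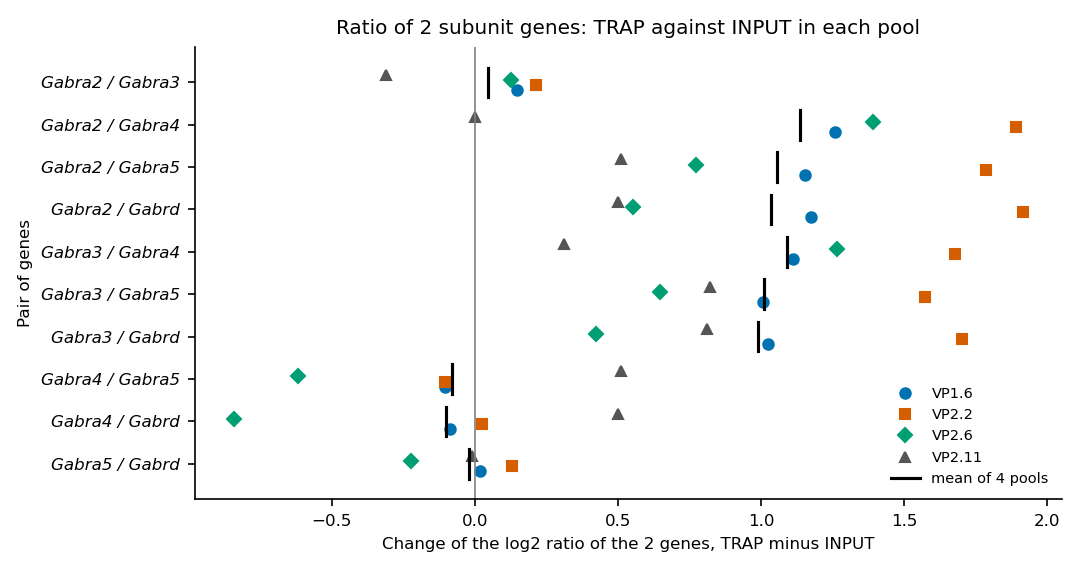
Change of the log2 ratio of each gene pair from INPUT to TRAP (horizontal axis) for the 10 pairs, with a symbol per pool and the mean over pools. Pairs of Gabra2 or Gabra3 with Gabra4, Gabra5 or Gabrd lie to the right of 0, with means of 0.99 to 1.14, and the other 4 pairs have means of -0.10 to 0.045.

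The other GABA-A subunits give the setting. Of 10 further subunit genes considered, 5 were tested, and 4 were higher in TRAP with the fraction alone and 3 with the block. Over all genes tested, 23.2% and 15.4% were called higher. Gabrb1 was at 18.3 ± 2.71 CPM in TRAP and 9.20 ± 2.63 in INPUT (SD, n = 4), a log2 fold change of 1.02 (limma adjusted p = 0.0041, or 0.018 with the block). Gabrb2 (1.16), which like Gabrb1 encodes a beta subunit, and Gabrq, the theta subunit gene (1.79), were also called in both fits, and Gabrg3 (0.75) without the block only (limma adjusted p = 0.026, or 0.068). Gabrg1 (-0.17) did not pass. Without VP2.2 the number called higher was 3, and 2 with the block. The median of the 5 was 1.02, against -0.28 for the alpha and delta genes and -0.05 for all genes tested. These 5 genes have 5352 to 13838 exon bases and the members 2875 to 7640. TRAP minus INPUT rose with exon length across genes, and the part of length in this contrast was not tested. VP2.2 had the highest difference of the 4 pools for each of the 5 other subunit genes, as for the 5 members.

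**Figure D4:**
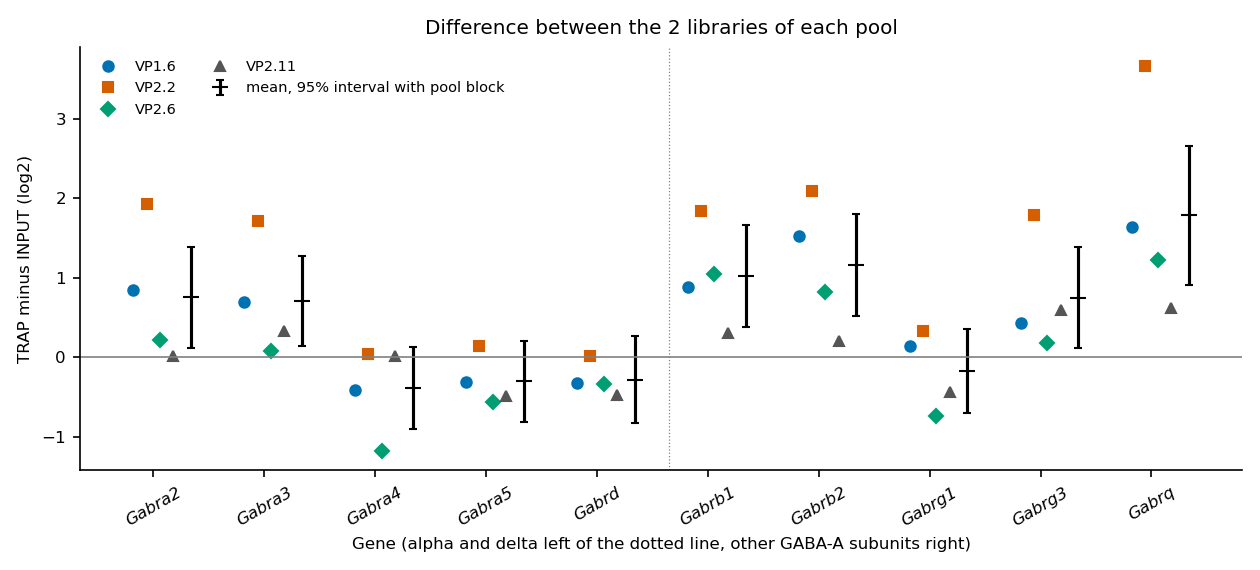
TRAP minus INPUT (vertical axis, log2) in each pool for the 5 alpha and delta genes (left of the dotted line) and 5 other GABA-A subunit genes (right), with the mean and the 95% interval of the blocked fit. VP2.2 lies highest for each gene, and the intervals of Gabra4, Gabra5, Gabrd and Gabrg1 span 0.

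Subunit genes sit in clusters on the chromosomes, and the members are set beside their neighbours there. Gabra4 lies head to head with Gabrb1 on chromosome 5, and 46 exon bases, 0.756% of Gabra4's, belong to both genes on opposite strands. The log2 ratio of Gabrb1 to Gabra4 was higher in TRAP by 1.4 (SD 0.83), from 0.29 to 2.23 over pools. That of Gabrb1 to Gabra2, in the same cluster, changed by 0.27 (SD 0.41), with 3 of 4 pools above 0. Against Gabrg1, also in this cluster, Gabra4 was within the spread (ratio of Gabrg1 to Gabra4 0.21, SD 0.46, from -0.46 to 0.56), and the ratio of Gabrg1 to Gabra2 was lower in TRAP in 4 of 4 pools (-0.93, SD 0.49). On chromosome 7, the ratio of Gabrg3 to Gabra5 was higher in TRAP by 1.05 (0.73 to 1.65 over pools). On chromosome X, Gabrq against Gabra3 was higher by 1.08 (0.29 to 1.94). The neighbours Gabrb1, Gabrg1, Gabrg3 and Gabrq have 13838, 7869, 11934 and 5352 exon bases. Gabra2, Gabra4, Gabra5 and Gabra3 have 7640, 6083, 2974 and 3924. The part of exon length in these ratios was not tested. The strand setting of the read counting is not given in the sources used here, so reads in shared exon bases cannot be told apart, and 148 bases (4.98%) of Gabra5's exons are shared with the antisense gene Gm9962. These gene pairs were chosen after their values were seen, and no test was made.

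Genes that place the receptor at the membrane were taken as a list of 21, all tested. With the fraction alone 8 were higher and 2 lower in TRAP, and with the block 5 and 1, with a median log2 fold change of 0.26. These are 47.6% and 28.6% of the list, about the shares over all genes tested (47.9% and 32.2%), so the counts are no result about the list. Without VP2.2 the counts were 5 and 5, and 4 and 3 with the block. Gphn, the gephyrin scaffold under receptors with alpha2 and alpha3, was at 206 ± 26.9 CPM in TRAP and 87.9 ± 14.1 in INPUT (SD, n = 4), a log2 fold change of 1.23 (limma adjusted p = 0.00078 with the block). Rdx, radixin, which anchors alpha5 receptors outside the synapse, was higher by 0.68 (limma adjusted p = 0.032 with the block), while Gabra5 itself was not. Nsf (1.62), Ubqln1 (0.92) and Dag1 (0.95) were higher in both fits, and Gabarap, a receptor trafficking protein, was lower (-1.05). Nlgn2 and Lhfpl4, of the inhibitory synapse, were at 0.35 and -0.06 and did not pass. The GABAergic markers Slc32a1 (-1.26) and Pvalb (-1.38) were lower in TRAP in both fits, whereas Gad1 (0.30) and Gad2 (-0.05) did not pass, with means of 516 to 613 CPM in either fraction.

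Across the 8 libraries Gabra2 and Gabra3 had nearly the same pattern (Pearson's r = 0.98 on log2 CPM), as did Gabra5 and Gabrd (r = 0.95), and Gabra4 was less like either, at 0.74 with Gabra5 and -0.19 with Gabra2. These points share pools and fractions, and the r are descriptions. Of all genes tested, those most like Gabra2 were Nrd1 (r = 0.997), Paqr9 (0.996) and Colgalt1 (0.994). Those most like Gabra3 were D5Ertd579e (0.997), Fam169a (0.996) and Ktn1 (0.996). Gabra4 was nearest to Ogfod2, Dbn1, which encodes the spine protein drebrin, and the kinase gene Dyrk1a (0.981, 0.981 and 0.975). Gabra5 was nearest to the palmitoyltransferase gene Zdhhc2 (0.997), Wdr24 (0.995) and Naa50 (0.993), and Gabrd to Mars (0.999), Peli2 (0.995) and Ric8b (0.995). With 8 libraries and 14249 genes such values occur for many genes.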

How the data were processed

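Bulk RNA-seq of 8 libraries was used, grouped by the fraction and pool in the sample labels. Per the study's methods and the labels, the authors aligned reads with STAR 2.5.1a to an Ensembl mouse assembly, counted reads per gene with featureCounts, scaled by TMM and deposited log2 CPM per library. The deposited table also holds the authors' fold changes, p-values and a transcript count, none of which were used. Of 14398 entries, 45 repeats were left out. INPUT VP1.6 and both VP2.11 columns are rounded to 3 significant digits.

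The members and all gene lists were chosen with earlier results of these data known. The named genes are the 5 members, the fixed lists, and for each member the 3 genes of highest r. Other alpha subunit genes are not reported here, nor are some genes of the lists, which the counts leave out. Gabrp, Gabrr1, Gabrr2 and Gabrr3 were not analysed here, and Gabre was too low to test.

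The 14249 genes that exceed 1 CPM in 3 libraries or more were tested by limma 3.58.1 in R 4.3.3 (lmFit and eBayes with trend), with Benjamini-Hochberg adjustment over all of them and a threshold of 0.05. The fit was tried on simulated data in which TRAP and INPUT of a pool shared a shift. That setting differs from the opposed deviations given below, so the trial does not cover them. The main fit has the fraction alone and, unlike the authors' fit (voom with quality weights), no library weights, which were an alternative. A fit blocked by pool stands beside it, because the labels and the 1 homogenate of a pool pair its libraries. Libraries of the same pool deviated from their fraction means with r of -0.745 to -0.495 across genes, those of different pools with 0.0457 to 0.441. Such opposed deviations make the SE without the block too small. In VP2.2 and VP2.6, 99.84% and 99.95% of low genes gave within-pool differences of whole reads plus 0.5 (tolerance 1e-06 log2), while each gene's level carries a shift common to both libraries of the pool (SD 0.433 and 0.411 log2). Differences within VP2.2 and VP2.6 are free of that shift, and levels and shares in their single libraries are not. The shift could not be estimated in VP1.6 and VP2.11. Its SD was taken over low genes, with the farthest shifts left out. Library sizes were estimated from the steps of whole reads in VP2.2 and VP2.6. No count test was run, since whole reads were found in differences only. P-values of the blocked fit rest on the spread of the differences between these pools. Those of the fit without the block rest on the spread of libraries within a fraction. In both fits limma draws each gene's variance toward a trend over all genes, so an SE is not that of the gene alone. Pool differences of Gabra2 had an SD of 0.86 and its blocked SE was 0.30, and for Gabrd these were 0.21 and 0.26. The permutation tests take the libraries as unpaired. Positions, exon lengths and site sequences came from GENCODE M21 (GRCm38), and the site was found as the coding stretch for its flanking residues. Single values were compared by exact permutation, enumerated in Python 3.11.15 with numpy 2.4.6.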

Additional observations from a re-analysis of the deposited data

Results flagged for a closer look

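Among 22 sets of 4 libraries, 1 for each fraction of the 5 members and of 6 other GABA-A subunits, 2 had a library far from the other 3. Chance gives about 1 in 20, or 1.1 of 22. Gabrg3, a gamma subunit gene of the Gabra5 cluster, was at 2.93 log2 CPM in INPUT of VP2.2 and at 3.76 to 3.92 in the other INPUT libraries. Gabrq, the theta subunit gene beside Gabra3, was at 4.78 log2 CPM in TRAP of VP2.2 and at 3.92 to 4.05 in the other TRAP libraries. No set of a member stood out in this way. Both libraries are from VP2.2, and the cause was not tested.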

How the results depend on the processing

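Each gene kept the direction of its mean under 18 alternatives, but its side of the threshold changed in some. With the replicate block (the pool), limma's adjusted p was 0.065 for Gabra2 (0.75) and 0.056 for Gabra3 (0.71), the number of genes called fell from 6830 to 4592, and no call of Gabra4, Gabra5, Gabrd or a pair changed. A minimum absolute log2 fold change of 1 left 3528 genes. With each pool left out in turn, with and without the block, the number ran from 3232 to 6894, and the log2 fold change from 0.36 to 1.00 for Gabra2, 0.37 to 0.92 for Gabra3, -0.52 to -0.12 for Gabra4, -0.45 to -0.22 for Gabra5 and -0.38 to -0.21 for Gabrd. Gabra2 also missed the threshold with library weights and the block (0.56), without a variance trend (0.75) and with the exon length trend removed, without or with the block (0.43 and 0.43). Gabra3 missed it with weights and the block (0.48). Calls of lower in TRAP appeared for Gabra4 with weights (-0.71), weights and the block (-0.63) and the length trend removed, without or with the block (-0.61 and -0.61), and with weights alone for Gabra5 (-0.39) and Gabrd (-0.29). The cause was not tested. In all, 7 alternatives called Gabra2, 11 Gabra3, 4 Gabra4, 2 Gabra5 and 1 Gabrd. No pair of genes could pass an exact paired test, whose smallest p over 4 pools is 0.125, so this says nothing about stability. Other filters, log2(CPM + 1) and centring on the median changed no call. Depth is known for VP2.2 and VP2.6 only.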
